A study of Mus musculus with 20 samples.

Results

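The genes described here are 10 regulators of the mitochondrial cell death pathway, the BCL2 family, chosen by symbol from 14700 genes listed in any of 4 expression tables. They comprise 4 BH3-only genes (Bbc3, Bcl2l11, Pmaip1 and Hrk), 2 effectors (Bax and Bak1) and 4 pro-survival genes (Bcl2, Bcl2l1, Bcl2l2 and Mcl1). All 10 were present in each of the 4 tables, so none was lost to a filter on low values. The libraries were made from total RNA of primary mouse neurons, prepared from cortices at embryonic day 15 and grown for 7 days. The 4 groups were wild-type (WT) or ciRS-7 knockout (KO) neurons, kept for 12 h in normoxia (N) or in oxygen and glucose deprivation (OGD), with 5 libraries in each. Normoxic medium held 25 mM glucose and 0.2 mM pyruvate, and OGD medium had neither added and was used at 1% oxygen. All 20 libraries, the WT ones included, carry the strain label C57BL/6N-Cdr1asem1Nikr, and the labels do not say how the WT embryos were related to the KO embryos. An N and an OGD library of the same number carry the same genotype label and the same batch label, and such a pair is called a culture here. The study's question was how OGD, a model of ischemia in a dish, and loss of the circular RNA ciRS-7 change gene expression in these neurons.

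Members of the family meet at the outer membrane of mitochondria. Pro-survival proteins hold the effectors BAX and BAK1 in check, BH3-only proteins bind the pro-survival proteins or activate the effectors, and activated effectors open the membrane so that cytochrome c leaves and caspases are switched on. In neurons, the BH3-only genes are known to be controlled largely at transcription, by p53, FOXO factors, JUN and the stress factors ATF4 and CHOP, whereas MCL1 is a short-lived protein set by its turnover. ciRS-7, made from the Cdr1as locus, is a circular RNA with many binding sites for the microRNA miR-7.

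The promoter windows below show the 3 members that rose under OGD in both genotypes. Each window is the stretch of 250 bases directly upstream of a RefSeq transcript start, on the build GRCm38.p6, in lower case with motif matches in capitals. Searches covered both strands for the hypoxia response core ACGTG, the AP-1 site TGANTCA, the cyclic AMP response element TGACGTCA, the CHOP/ATF4 composite TGATGNAA, the FOXO site GTAAACA and the p53 half-site. The table held 14 such windows for 9 members, and 5 windows of 4 members held a match.
Bbc3, chr7:16310181-16310430, plus strand: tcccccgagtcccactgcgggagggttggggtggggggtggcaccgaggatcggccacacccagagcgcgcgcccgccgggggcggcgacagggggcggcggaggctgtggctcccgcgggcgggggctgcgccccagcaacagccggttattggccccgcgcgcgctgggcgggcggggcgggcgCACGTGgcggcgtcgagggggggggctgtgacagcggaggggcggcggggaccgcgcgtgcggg
Bcl2l11, chr2:128125788-128126037, plus strand: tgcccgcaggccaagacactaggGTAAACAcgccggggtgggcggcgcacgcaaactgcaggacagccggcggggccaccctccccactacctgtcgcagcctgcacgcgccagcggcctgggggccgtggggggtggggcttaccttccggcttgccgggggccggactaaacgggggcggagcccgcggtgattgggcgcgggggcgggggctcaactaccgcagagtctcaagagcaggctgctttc
Bax, chr7:45466899-45467148, minus strand: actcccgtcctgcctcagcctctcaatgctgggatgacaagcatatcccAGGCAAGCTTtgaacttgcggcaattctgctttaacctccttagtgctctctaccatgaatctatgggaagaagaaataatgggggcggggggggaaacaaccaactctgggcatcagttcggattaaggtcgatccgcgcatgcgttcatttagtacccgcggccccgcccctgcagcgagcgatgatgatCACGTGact
The capitals in the Bbc3 window, from 64 to 59 bases before the start, are an E-box palindrome that matches the hypoxia core once on each strand, so its 2 matches overlap and count as 1 place. Bcl2l11 has the FOXO site from 227 to 221 bases before its start. Bax has a p53 half-site from 201 to 192 bases before the start and the same palindrome from 9 to 4 bases before it. A second Bbc3 window, for a start further upstream, held a FOXO site, and the Hrk window held a CHOP/ATF4 composite. Such matches also occur in windows of other genes, at shares that differ by motif. Among 32851 windows of the same length, the hypoxia core occurred in 16.6%, the AP-1 site in 6.75%, the cyclic AMP response element in 1.55%, the CHOP/ATF4 composite in 3.45%, the FOXO site in 3.17% and the p53 half-site in 7.13%. The share of windows with a match to any of these motifs was not computed, so the count of members' windows with a match has no background. Factor binding was not measured, and a match describes letters only.

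Because ciRS-7 binds miR-7, the members' 3' UTRs were searched for matches to the miR-7 seed, bases 2 to 8 of the mature microRNA, shown in capitals. Matches of at least 7 bases were found in 4 of 10 members, and a full match of 8 bases (bases 2 to 8 followed by an A) in 2 of them. The lines below give the microRNA and both full matches, with 11 bases on either side.
mmu-miR-7a-5p: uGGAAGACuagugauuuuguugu
Bcl2l11, chr2:128159587-128159594, plus strand: gtaaagcacttGTCTTCCAcaagatgtctg
Bcl2, chr1:106542717-106542724, minus strand: aagaaagcctgGTCTTCCAtggactggaga
The Bcl2l11 site lies in 3 of its 5 annotated transcripts with a 3' UTR, and the Bcl2 site in 1 of 2. Shorter matches of 7 bases were also present in Bcl2l11, Bcl2, Mcl1 and Pmaip1. The one in Bcl2l11 matched bases 2 to 8, and those in the others matched bases 2 to 7 followed by an A. The share of all genes' 3' UTRs with such a match was not computed. No match of either kind was found in the annotated 3' UTRs of Bbc3, Hrk, Bax, Bak1, Bcl2l1 or Bcl2l2.

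On GRCm38 with GENCODE M21 genes, Bbc3 (ENSMUSG00000002083) is at chr7:16308393-16318205 and Bcl2l11 (ENSMUSG00000027381) at chr2:128126038-128162547, both on the plus strand. Hrk (ENSMUSG00000046607) is at chr5:118164648-118189478 on the plus strand. Bax (ENSMUSG00000003873) is at chr7:45461697-45466898 and Bak1 (ENSMUSG00000057789) at chr17:27019810-27029009, both on the minus strand. Bcl2 (ENSMUSG00000057329) is at chr1:106538178-106714274 and Bcl2l1 (ENSMUSG00000007659) at chr2:152780668-152831728, both on the minus strand. Bcl2l2 (ENSMUSG00000089682) is at chr14:54883377-54888234 and Mcl1 (ENSMUSG00000038612) at chr3:95658788-95663176, both on the plus strand. Pmaip1 is ENSMUSG00000024521. Values of 2 members are uncertain because their exons are shared with readthrough genes on the same strand. Bax shares 8.51% of its exonic 50-base words with Gm45808, and Bcl2l2 shares 12.1% with Gm20521. Bak1 overlaps Ggnbp1 and Bcl2 overlaps D630008O14Rik on the opposite strand, and the counting of strand is not given in the sources used here. Bcl2 also overlaps Gm37053 and Mir3473f on its own strand, and 0.0989% of its 50-base words occur in other genes.

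Reads recovered from the tables totalled 7071603 to 16657766 per library, and members had 38 to 1893 reads per library. The row for Cdr1as, the targeted locus, held 700 to 1365 reads in N_WT, 545 to 1912 in OGD_WT, 5 to 16 in N_KO and 2 to 14 in OGD_KO, which matches the genotype labels. That row does not separate circular from linear RNA. The mitochondrial ribosomal RNA mt-Rnr2 was the top gene in every library and took 10.1 to 16.4% of reads in N libraries and 13.8 to 32.0% in OGD libraries. All 16 neuron markers were measured, whereas values were at hand for 1 of 10 microglia markers and for 3 of 8 endothelial and mural markers in at least 1 table, and the others were not analysed here. Astrocyte markers were present (9 of 10 measured).

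In WT cultures under OGD, Bbc3 (PUMA), Bcl2l11 (BIM) and Bax rose, and Pmaip1 (NOXA), Bcl2l1 (BCL-XL) and Bcl2l2 (BCL-W) fell. Hrk, Bak1, Bcl2 and Mcl1 did not pass the test, which was limma across all genes with Benjamini-Hochberg adjusted p under 0.05. In KO cultures the same 3 genes rose and Pmaip1 and Bcl2l1 fell. A call was common in these comparisons. In WT, 6 of 10 members were called beside 44.3% of the table's genes, 3 of them higher (21.6% of genes) and 3 lower (22.8% of genes). In KO, 5 of 10 were called beside 40.9% of genes, 3 higher (21.0%) and 2 lower (19.9%). Groups did not overlap for 5 members in WT (26.9% of genes) and for 5 in KO (25.8% of genes). The members were chosen with earlier results of these data known, so nothing is read from these counts about the family, and the members are described 1 by 1.

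**Figure D1:**
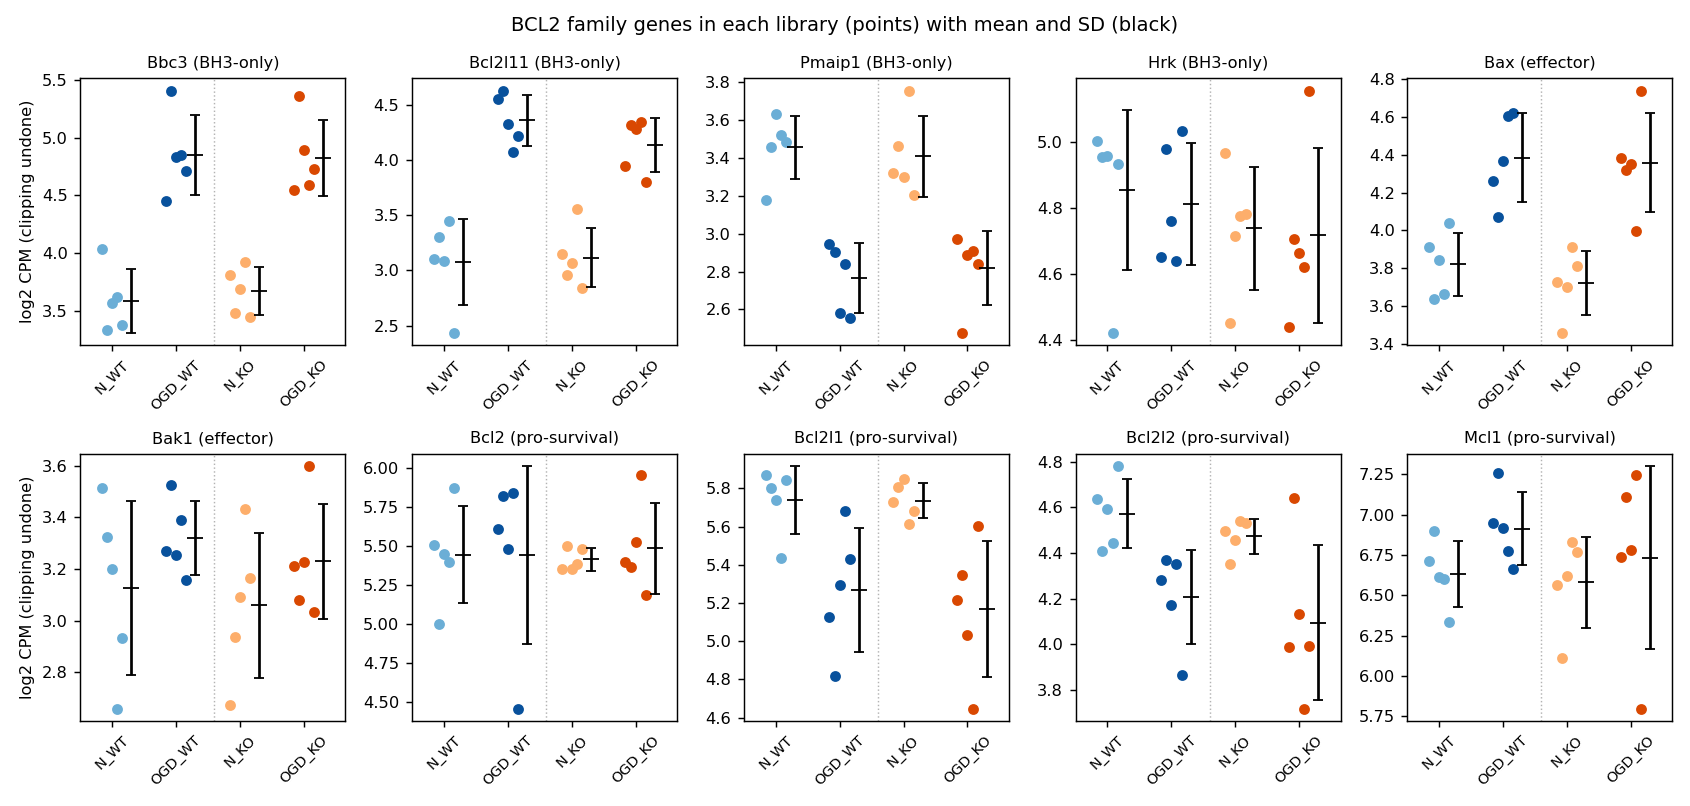
Each panel plots 1 gene's log2 CPM (y axis, clipping undone) in the 5 libraries of each of the 4 groups (x axis), with the mean and SD in black. WT and KO values come from separate tables, divided by the dotted line. Bbc3, Bcl2l11 and Bax sit higher and Pmaip1 lower in all OGD libraries than in all N libraries of the same genotype, with Bax under OGD at 4.07 to 4.62 in WT and 4.0 to 4.74 in KO.

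Levels are given as log2 CPM, the base-2 logarithm of scaled reads, as in the deposited tables after the clipping described under processing was undone. The unlogged deposited values did not sum to a common library total. In the OGD against N comparisons, sums ran from 886324 (N_WT replicate 2) to 1.15e+06 (OGD_WT replicate 4) in WT. In KO they ran from 895220 (N_KO replicate 2) to 1.18e+06 (OGD_KO replicate 5). Bbc3, a BH3-only gene whose protein PUMA binds all pro-survival members, was at 4.03, 3.33, 3.57, 3.62 and 3.38 in N_WT replicates 1 to 5. In OGD_WT its values were 4.45, 5.41, 4.83, 4.85 and 4.71. All OGD libraries were above all N libraries, and replicate 1 had the smallest gap because its N value was the highest and its OGD value the lowest of their groups. The log2 fold change was 1.26 (SE 0.18), a 2.40-fold rise (95% interval 1.86 to 3.09; limma adjusted p = 8.5e-06). KO libraries had 3.81, 3.49, 3.69, 3.92 and 3.45 in N and 4.54, 5.36, 4.89, 4.59 and 4.73 in OGD. Here too the groups did not overlap, and the log2 fold change was 1.15 (SE 0.17; limma adjusted p = 3.08e-05). Bbc3 rose in 5 of 5 cultures of each genotype, by 0.42 to 2.07 in WT and 0.67 to 1.88 in KO on the log2 scale.

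Bcl2l11 encodes BIM, the BH3-only protein long tied to death of neurons deprived of trophic factors. N_WT libraries had 3.10, 3.30, 3.09, 3.45 and 2.44, and OGD_WT libraries 4.55, 4.63, 4.33, 4.07 and 4.21. Replicate 5 of N_WT was the lowest, and no N library reached any OGD library. The rise was 1.28 on the log2 scale (SE 0.18), or 2.44-fold (95% interval 1.88 to 3.15; limma adjusted p = 8.15e-06). In KO, N libraries had 3.15, 2.96, 3.07, 3.55 and 2.84, and OGD libraries 3.94, 4.32, 4.28, 4.34 and 3.80. The groups were again apart, with a log2 fold change of 1.02 (SE 0.16; 2.03-fold; limma adjusted p = 9.11e-05). Bbc3 and Bcl2l11 lay at the 97.5 and 97.6 percentile of all genes' log2 fold changes in WT and at the 97.0 and 95.5 percentile in KO.

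Pmaip1 encodes NOXA, a BH3-only protein that binds mainly MCL1. Its N_WT values were 3.18, 3.46, 3.63, 3.52 and 3.48, and its OGD_WT values were 2.94, 2.90, 2.58, 2.84 and 2.56. Every OGD library was below every N library, the reverse of Bbc3 and Bcl2l11. The log2 fold change was -0.69 (SE 0.15; limma adjusted p = 0.000913), leaving 0.62 of the N level. In KO, N values were 3.32, 3.46, 3.30, 3.75 and 3.20, and OGD values were 2.97, 2.48, 2.89, 2.91 and 2.84. These groups did not overlap either, and the log2 fold change was -0.59 (SE 0.15; limma adjusted p = 0.00506). Pmaip1 fell in 5 of 5 cultures of each genotype. It was also among the least read members, with 40 to 155 reads per library.

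Hrk, a BH3-only gene known from neurons, was at 4.42 to 5.00 in N_WT (median 4.95) and 4.64 to 5.03 in OGD_WT (median 4.76). In KO it was at 4.45 to 4.97 in N and 4.44 to 5.15 in OGD. The ranges overlapped in both genotypes. Its log2 fold change was -0.04 in WT (95% interval -0.36 to 0.27) and -0.02 in KO (-0.34 to 0.30). Neither passed limma (adjusted p = 0.845 and 0.928), and Hrk was higher under OGD in 3 of 5 WT and 2 of 5 KO cultures.

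**Figure D2:**
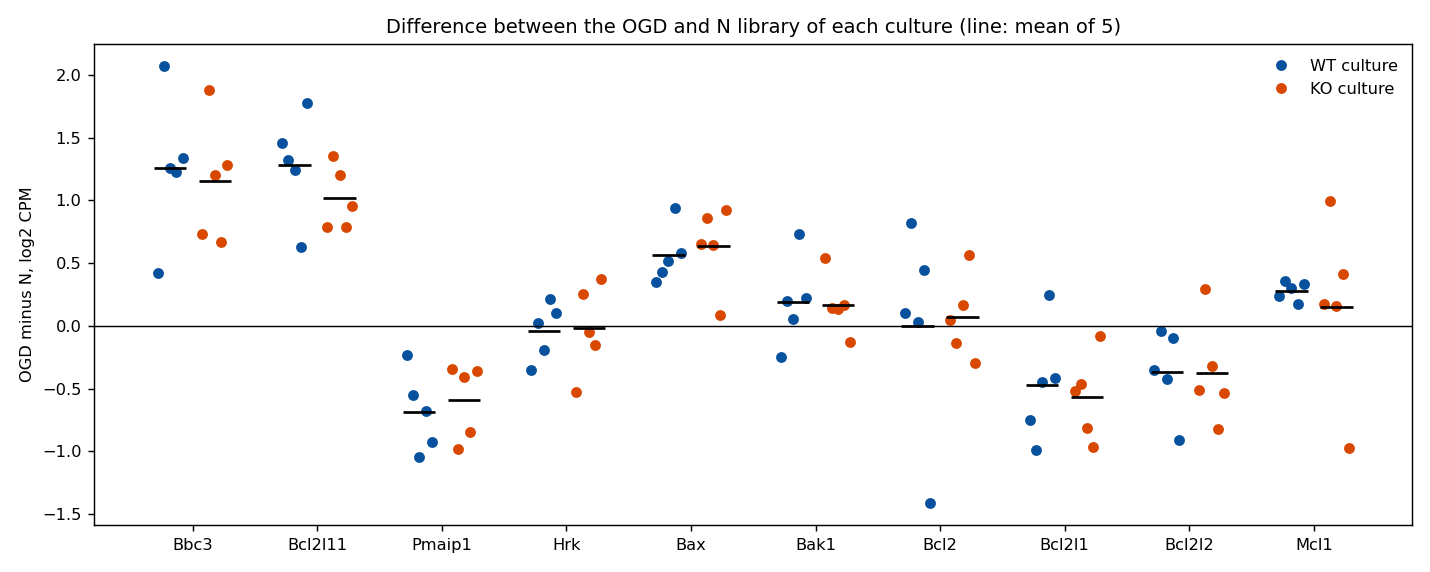
For each of the 10 genes (x axis), the points give the OGD minus the N value in log2 CPM (y axis) for 5 WT (blue) and 5 KO (orange) cultures, and the black line their mean. Bbc3, Bcl2l11 and Bax are above 0 and Pmaip1 below 0 in all 10 cultures, while Mcl1 is above 0 in 5 WT cultures and ranges from -0.97 to 0.99 in KO.

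Bax, the effector that moves from the cytosol to mitochondria, was at 3.91, 3.64, 3.85, 3.67 and 4.04 in N_WT and at 4.26, 4.07, 4.37, 4.61 and 4.62 in OGD_WT. The lowest OGD library stood just above the highest N library. The log2 fold change was 0.56 (SE 0.15; 1.48-fold; limma adjusted p = 0.00452). KO libraries had 3.73, 3.46, 3.70, 3.91 and 3.81 in N and 4.38, 4.32, 4.35, 4.0 and 4.74 in OGD, a log2 fold change of 0.63 (SE 0.15; limma adjusted p = 0.00286). The groups did not overlap in KO, where culture 4 rose by 0.09 and the others by 0.65 to 0.93. The rise of Bax depended on scaling. With recovered reads scaled by their total, the median of all genes shifted to -0.30 in WT and -0.28 in KO, and the log2 fold change of Bax was 0.29 (limma adjusted p = 0.113) and 0.36 (limma adjusted p = 0.0532). The share of mt-Rnr2 in the total moved with OGD, as given above, and its part in this result was not tested.

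Bak1, the effector that resides in the mitochondrial membrane, was at 2.66 to 3.51 in N_WT (median 3.20) and 3.16 to 3.53 in OGD_WT (median 3.27). KO values were 2.67 to 3.43 in N and 3.03 to 3.60 in OGD. Its ranges overlapped, and its log2 fold changes of 0.19 in WT (95% interval -0.15 to 0.54; limma adjusted p = 0.364) and 0.17 in KO (-0.18 to 0.52; limma adjusted p = 0.43) did not pass. With scaling by total reads both had the other sign, at -0.08 and -0.11.

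Of the pro-survival genes, Bcl2l1, whose protein BCL-XL is the main neuronal pro-survival member, was at 5.87, 5.80, 5.74, 5.43 and 5.84 in N_WT and 5.12, 4.82, 5.30, 5.68 and 5.43 in OGD_WT. Replicate 4 of each group lay inside the other's range, and culture 4 was higher under OGD by 0.24. The log2 fold change was -0.47 (SE 0.16; limma adjusted p = 0.0216). With the culture as a replicate block the call was lost (limma adjusted p = 0.0515), as it was without OGD_WT replicate 1, OGD_WT replicate 2 or N_WT replicate 1 (limma adjusted p = 0.0601, 0.0598 and 0.0573). In KO, N values were 5.73, 5.81, 5.85, 5.62 and 5.68, and OGD values were 5.21, 5.34, 5.03, 4.65 and 5.60. No KO library overlapped, although N replicate 4 (5.62) and OGD replicate 5 (5.60) nearly met. The KO log2 fold change was -0.57 (SE 0.16; limma adjusted p = 0.0089), lower in 5 of 5 cultures.

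Bcl2l2 (BCL-W) was at 4.64, 4.41, 4.59, 4.45 and 4.78 in N_WT and 4.28, 4.37, 4.17, 4.35 and 3.87 in OGD_WT. The groups did not overlap, by a margin of a few hundredths between the lowest N and the highest OGD library. The log2 fold change was -0.36 (SE 0.15; limma adjusted p = 0.0464), a call at the edge of the threshold. It was lost with the replicate block (limma adjusted p = 0.0858) and without any 1 of replicates 1, 3 and 5 of either group (limma adjusted p of 0.0717 to 0.131). KO values were 4.50, 4.35, 4.46, 4.54 and 4.53 in N and 3.99, 4.64, 4.13, 3.72 and 3.99 in OGD. Here OGD replicate 2 stood above all N libraries. The log2 fold change of -0.38 (SE 0.16) did not pass (limma adjusted p = 0.0632), whereas it passed at -0.52 without OGD_KO replicate 2 (limma adjusted p = 0.00616) and at -0.41 with the deposited clipping kept (limma adjusted p = 0.00554).

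Bcl2, the founding member, was at 5.00 to 5.87 in N_WT (median 5.45) and 4.46 to 5.84 in OGD_WT (median 5.61), where replicate 5 was far below the others. KO values were 5.35 to 5.50 in N and 5.18 to 5.95 in OGD. The ranges overlapped, and the log2 fold changes were -0.0025 in WT (95% interval -0.45 to 0.44; limma adjusted p = 0.994) and 0.07 in KO (-0.24 to 0.38; limma adjusted p = 0.733). Without OGD_WT replicate 5 the WT value was 0.24 (limma adjusted p = 0.227).

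Mcl1, whose short-lived protein guards many cell types, was at 6.33 to 6.90 in N_WT (median 6.62) and 6.67 to 7.26 in OGD_WT (median 6.92), and at 6.11 to 6.83 in N_KO and 5.80 to 7.25 in OGD_KO. Its ranges overlapped. The WT log2 fold change was 0.28 (95% interval -0.03 to 0.59; limma adjusted p = 0.138), with 5 of 5 cultures higher. In KO it was 0.15 (-0.31 to 0.62; limma adjusted p = 0.603), and OGD replicate 5 at 5.80 was the lowest of all. Without that library the KO value was 0.39 (limma adjusted p = 0.0612), and over all libraries left out in turn it was 0.03 to 0.39. Scaled by total reads, the WT value was 0.000828 (limma adjusted p = 0.997). It was called at 0.26 on the values as deposited, with clipping kept (limma adjusted p = 0.0458), and with limma library weights, whose estimation did not converge, at 0.30 (adjusted p = 1.77e-07).

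In the exact permutation test over libraries (two-sided, unadjusted), Bbc3, Bcl2l11, Pmaip1 and Bax reached the smallest p that 5 against 5 allows, 0.00794, in both genotypes. Bcl2l2 reached it in WT only and Bcl2l1 in KO only. That p follows from groups that do not overlap, so it adds nothing to the ranges given above. Batches were also looked at. Batch 1 held 1 culture per genotype and batch 2 held 1 KO culture, so only batch 3 (3.1 to 3.3) gave a fit, on 4 WT and 3 KO cultures. There the WT log2 fold changes were 1.47 for Bbc3, 1.24 for Bcl2l11, 0.62 for Bax, -0.80 for Pmaip1, -0.40 for Bcl2l1 and -0.37 for Bcl2l2, and limma called the first 4 of these (adjusted p up to 0.0155). Bcl2l1 and Bcl2l2 were not called (limma adjusted p = 0.132 and 0.145). In KO the values were 1.28 for Bbc3 and 1.03 for Bcl2l11, both called (limma adjusted p = 0.000681 and 0.00828). The KO values of Bax at 0.62, Pmaip1 at -0.73 and Bcl2l1 at -0.50 were not (limma adjusted p = 0.151, 0.0837 and 0.282).

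**Figure D3:**
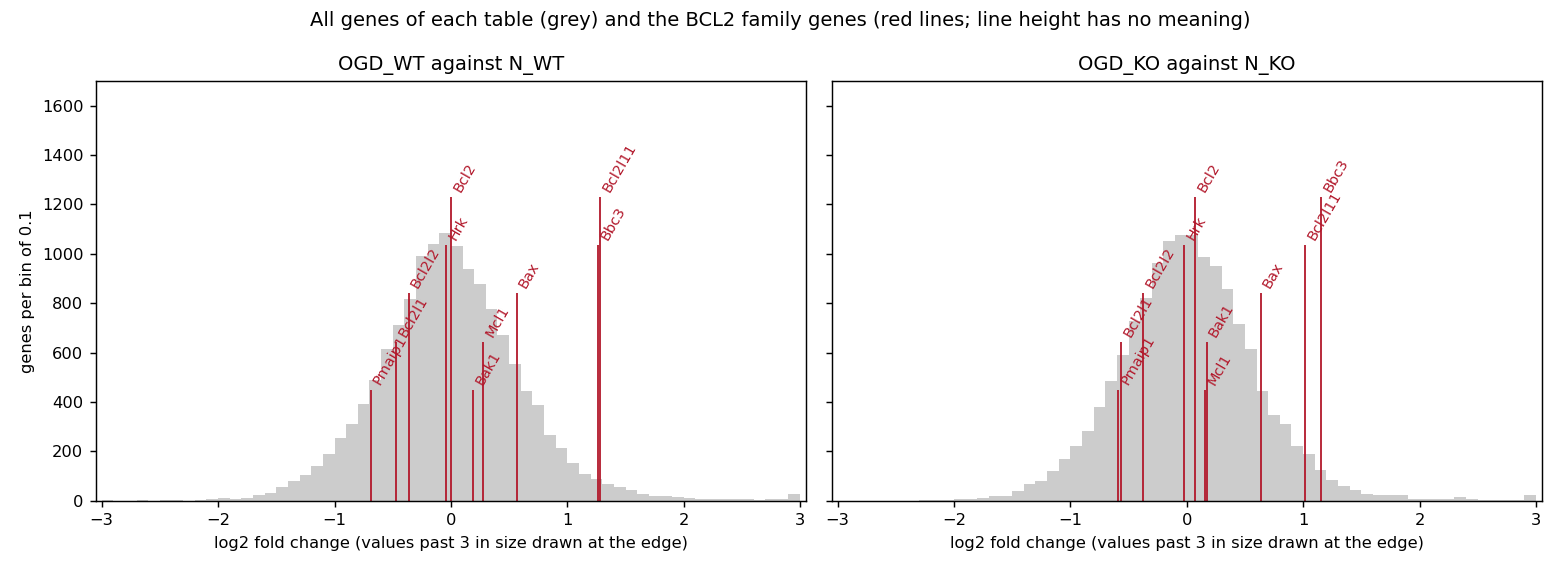
The histograms count genes (y axis) by log2 fold change of OGD against N (x axis) for all 14235 genes of the WT table and all 14375 of the KO table, and red lines mark the 10 BCL2 family genes. Bbc3 and Bcl2l11 lie in the upper tail, from 1.02 to 1.28, and the other members lie in the body of the distribution.

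Relations between members that oppose each other at the protein level were read as a log2 ratio, the difference of 2 genes' log2 CPM in the same library. The factor that scales a library cancels in that difference. The deposited values include a small count added to each gene before the logarithm, 2.56 to 7.04 reads per library. It pulls ratios of low counts towards 0. The ratios are descriptions of RNA, not of protein, and carry no test. The ratio of Bax to Bcl2l1 was -1.92 ± 0.16 (SD, n = 5) in N_WT, with a range of -2.16 to -1.77, and -0.88 ± 0.13 in OGD_WT, from -1.07 to -0.75. In KO it was -2.01 ± 0.25 in N, from -2.35 to -1.70, and -0.81 ± 0.15 in OGD, from -1.03 to -0.65. The N and OGD ranges were apart in both genotypes. Bbc3 to Bcl2l1 went from -2.15 ± 0.32 in N_WT to -0.42 ± 0.58 in OGD_WT, and from -2.06 ± 0.26 to -0.34 ± 0.40 in KO. Bax to Bcl2 was -1.62 ± 0.18 in N_WT and -1.06 ± 0.72 in OGD_WT, and -1.69 ± 0.21 and -1.13 ± 0.54 in KO, and its N and OGD ranges overlapped in both genotypes. The ratio of Bcl2l11 to Mcl1 was -3.56 ± 0.27 in N_WT and -2.55 ± 0.13 in OGD_WT, and -3.46 ± 0.30 and -2.60 ± 0.37 in KO. Pmaip1 to Mcl1 moved the other way, from -3.18 ± 0.30 to -4.15 ± 0.19 in WT and from -3.17 ± 0.34 to -3.92 ± 0.64 in KO, where its ranges overlapped.

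To order the groups, all 20 libraries were placed on 1 scale with trimmed mean of M-values (TMM) factors from recovered reads. By group mean, Bbc3, Bcl2l11 and Bax had both OGD groups above both N groups, and Pmaip1 and Bcl2l2 had both N groups above both OGD groups. At that step the ranges of the neighbouring groups were apart for these 5 genes. The gaps between means were 1.16 for Bbc3, 1.03 for Bcl2l11, 0.58 for Bax, 0.62 for Pmaip1 and 0.30 for Bcl2l2 (log2). Bcl2l2 was only narrowly apart there, with N_KO from 4.346 upwards and OGD_WT up to 4.340. Its OGD_KO range, 3.72 to 4.62, overlapped both N_KO (4.35 to 4.55) and N_WT (4.37 to 4.75). For Bcl2l1 the gap was 0.46 and the ranges overlapped. All other neighbours overlapped.

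Levels of different members were compared per kilobase of exon on the same scale, in CPM per kb. Mcl1 was the highest in every group, at 28.8 ± 4.0 (SD, n = 5) in N_WT and 35.3 ± 5.7 in OGD_WT. In N_WT it was followed by Bcl2l1 at 11.5 ± 1.3, Bax at 8.74 ± 1.05 and Bbc3 at 5.56 ± 1.17, and Bcl2l11 was the lowest at 1.03 ± 0.25. Under OGD in WT, Bbc3 at 13.7 ± 3.6 and Bax at 13.2 ± 2.1 ranked above Bcl2l1 at 8.48 ± 1.90. Pmaip1 was then the lowest at 2.40 ± 0.31, next to Bcl2l11 at 2.54 ± 0.41, a difference smaller than their SDs. KO groups had Mcl1, Bcl2l1, Bax and Bbc3 in the same ranks under N, and Mcl1, Bbc3, Bax and Bcl2l1 under OGD. Exon length is the union of annotated exons, so a gene with long unused exons is set too low.

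Between KO and WT, no member passed the test in normoxia or under OGD. These comparisons use the same libraries as the OGD comparisons above. The background of that comparison was low as well, with 0.0353% of genes called in normoxia and 0.0282% under OGD. No member's groups were apart, beside 0.325% of genes in normoxia and 0.345% under OGD. By limma, 0 of 10 members were also at an unadjusted p under 0.05 in either comparison, beside 1.81% of genes in normoxia and 1.78% under OGD. With so low a share of all genes, nothing is read from that count about the members. In normoxia the KO minus WT difference ran from -0.08 (Hrk) to 0.12 (Bbc3) on the log2 scale. The 95% intervals of the 10 members all held 0, and the lowest and highest ends over the members were -0.41 and 0.47. Under OGD it ran from -0.21 (Bcl2l11) to 0.06 (Pmaip1), with intervals within -0.63 to 0.54.

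The members with a full miR-7 match showed the following. Bcl2l11 differed between KO and WT by 0.07 (95% interval -0.32 to 0.47) in normoxia and by -0.21 (-0.54 to 0.12) under OGD. Bcl2 differed by 0.01 (-0.30 to 0.31) and 0.06 (-0.42 to 0.54). None of these passed limma, and miR-7 itself was not measured in these tables.

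**Figure D4:**
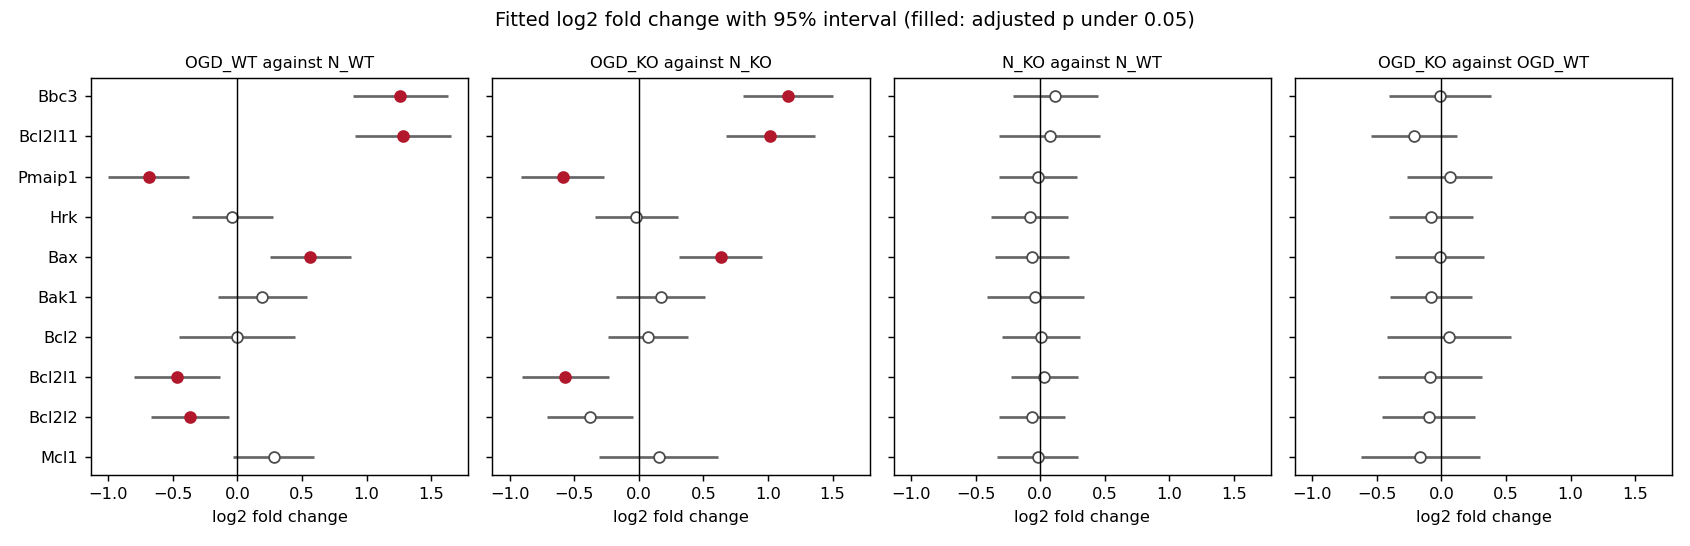
Fitted log2 fold changes (x axis) with 95% intervals for the 10 genes (y axis) in the 4 comparisons, filled in red where the adjusted p is under 0.05. Both OGD panels show Bbc3 and Bcl2l11 furthest to the right, and both KO against WT panels have all points between -0.21 and 0.12 with intervals that cross 0.

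The OGD response was then set against genotype in 1 model over all 20 libraries, with the culture as a block. The interaction term, the KO response minus the WT response, was called for 0 of 10 members and 0.0% of the 13688 genes, of which 100 had an unadjusted p under 0.05. Its values were -0.12 (SE 0.27) for Bbc3, -0.28 (SE 0.30) for Bcl2l11, 0.09 (SE 0.23) for Pmaip1, 0.06 (SE 0.22) for Bax, -0.11 (SE 0.24) for Bcl2l1 and -0.03 (SE 0.23) for Bcl2l2. The smallest unadjusted limma p among members was 0.358. The correlation within cultures estimated for the block was -0.17, so the pairing did not narrow these SEs. Of all genes, 0.731% had an unadjusted limma p under 0.05, a share below that cutoff. The test was therefore strict and could miss differences. For Bcl2l2, called in WT and not in KO, the test of that difference is the interaction value above, and it did not pass.

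Among other BCL2 relatives, 10 of 18 listed genes were measured, and 4 were called in each genotype, 2 higher and 2 lower, beside 44.3% of all genes called in WT and 40.9% in KO. Bnip3, a hypoxia-inducible mitophagy receptor, rose by 2.12 in WT and 1.76 in KO (log2), and its relative Bnip3l by 0.82 and 0.71. Bid, the BH3-only protein cleaved by caspase-8, fell by 0.83 and 0.93, and Moap1, a BAX-binding modulator, fell by 1.08 and 0.71. The list's median was -0.01 in WT and -0.11 in KO, beside -0.03 and 0.00 for all genes.

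In the machinery downstream of the effectors, 8 of 19 measured genes were called in WT (4 higher, 4 lower) and 7 of 19 in KO (4 higher, 3 lower). These counts are close to the 44.3% and 40.9% of all genes called, so nothing is read from them about the list. Casp9, the initiator caspase of the apoptosome, fell by 1.06 in WT and 0.83 in KO. Dffa, the inhibitor of the DNA-cutting enzyme, fell by 0.84 and 0.80, while Dffb, the enzyme, rose by 0.64 and 0.62. Casp6, an executioner caspase, rose by 0.71 and 0.57, and Casp2, an initiator caspase, by 0.63 and 0.74. The median of the list was -0.06 in WT and -0.12 in KO.

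Transcription factors reported to act on BH3-only genes showed 7 of 12 called in each genotype, all higher, beside 21.6% of all genes called higher in WT and 21.0% in KO. Their median log2 fold change was 0.94 in both genotypes. Egr1, an immediate early gene, rose by 3.19 in WT and 2.81 in KO, and Jun, the AP-1 subunit, by 2.89 and 2.75. Foxo3, a FOXO factor, rose by 1.37 and 1.18, and Ddit3, which encodes CHOP, by 1.09 and 1.42. The remaining 3 called genes were Trp53, Atf4 and Cebpb. RNA levels do not report the activity of these factors.

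JNK pathway kinases and scaffolds had 4 of 13 called in WT and 5 of 13 in KO, all lower, beside 22.8% and 19.9% of all genes called lower and 44.3% and 40.9% called in either direction. Map2k4, a kinase that activates JNK, fell by 0.66 in WT and 0.64 in KO, Mapk9 (JNK2) by 0.50 and 0.57, and the scaffold Mapk8ip2 by 0.70 and 0.63. Genes for turnover of MCL1 and BH3-only proteins had 5 of 9 called in each genotype, all lower, beside the same shares of all genes. Fbxw7, a ubiquitin ligase subunit that targets MCL1, fell by 0.80 and 0.79, and Btrc by 0.81 and 0.80. Trim17 fell by 0.82 and 0.96, on low counts of 9 to 34 reads per library in WT and 4 to 48 in KO. Dynll2, the dynein light chain that tethers BMF, fell by 0.63 and 0.62. Between genotypes, 0 genes of any of these 5 lists were called by limma in normoxia or under OGD. The lists were chosen with earlier results of these data known, and the counts are descriptions.

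**Figure D5:**
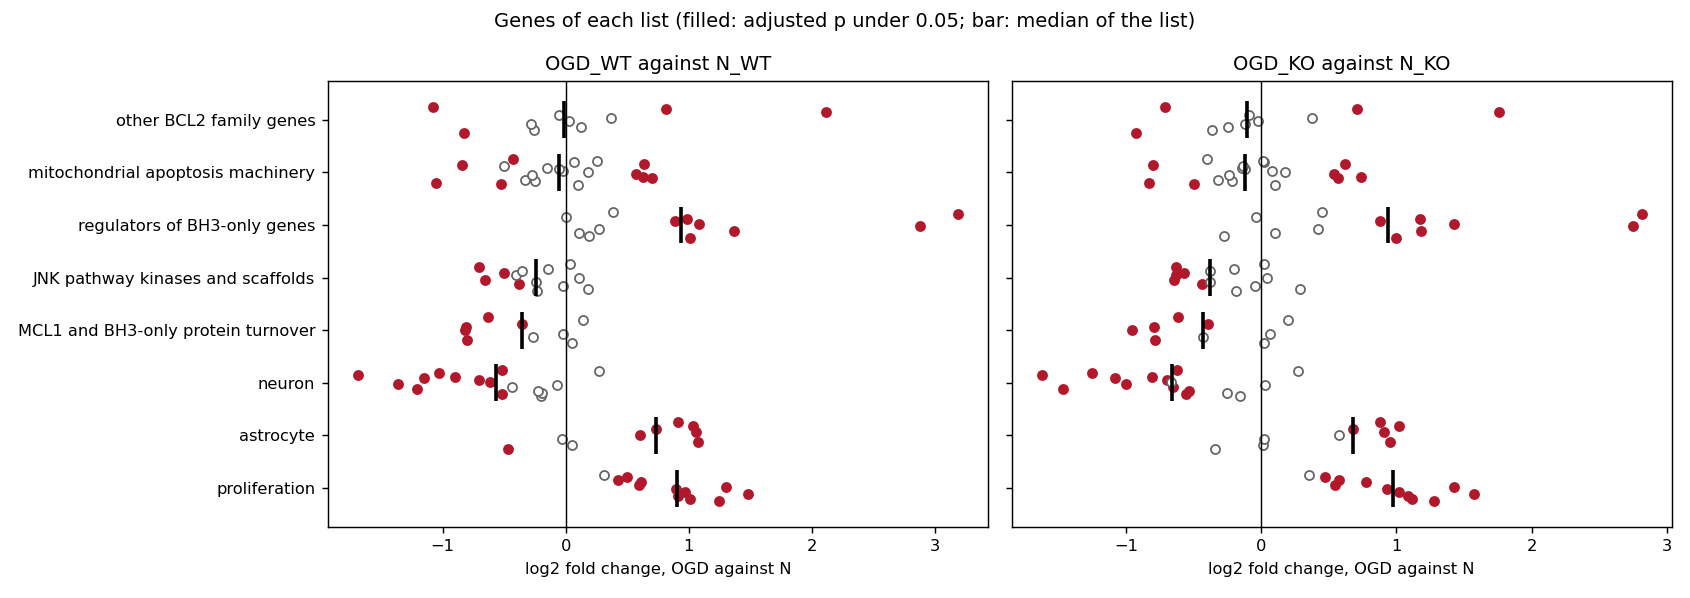
Each point is a gene of a list (rows), placed by its log2 fold change of OGD against N (x axis) in WT (left) and KO (right), filled where the adjusted p is under 0.05, with the list's median as a bar. Regulators of BH3-only genes have a median of 0.94 in both genotypes, and neuron markers one of -0.57 in WT and -0.66 in KO.

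Markers of several cell types differed between OGD and N as well. Counts here are of called genes. Of all genes, 44.3% were called in WT and 40.9% in KO, with 21.6% and 21.0% higher and 22.8% and 19.9% lower. Neuron markers fell for 10 of 16 genes in WT and 11 of 16 in KO, and their summed level was 5451 to 6881 CPM in N_WT, 3447 to 6252 in OGD_WT, 5831 to 6062 in N_KO and 3561 to 5058 in OGD_KO. Astrocyte markers rose for 6 and fell for 1 of 9 in WT and rose for 5 of 9 in KO, with sums of 1159 to 1459 CPM in N_WT, 1881 to 2337 in OGD_WT, 892 to 1586 in N_KO and 1526 to 2354 in OGD_KO. Proliferation genes rose for 11 of 12 in each genotype, with sums of 547 to 720 CPM in N_WT, 1009 to 1670 in OGD_WT, 535 to 785 in N_KO and 1166 to 1502 in OGD_KO. Oligodendrocyte lineage markers had 3 of 8 called in each genotype, 1 higher and 2 lower in WT and 3 higher in KO. That count is close to the share of all genes called, so nothing is read from it. Of the endothelial and mural markers, Kdr, an endothelial receptor, rose by 0.60 in WT and 1.11 in KO, on low counts of 5 to 37 reads per library, and Pdgfrb, a mural receptor, fell by 0.66 in WT and had a KO value of -0.30 (limma adjusted p = 0.324). In bulk RNA, fewer cells of a type and less RNA per cell cannot be told apart. The part of these shifts in the changes of the BCL2 family genes was not tested.

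The genes most alike in pattern were found by Pearson correlation over the 20 libraries on the joint scale, among 9383 genes. Those libraries share the N and OGD split, so any gene that moved with OGD correlates with any other. Bbc3 was most like Zbtb2 (r = 0.97), H3f3b (0.95) and Creb5 (0.95), and Bcl2l11 most like Clk3 (0.97), Atg14 (0.96) and Oser1 (0.96). Bax was most like mt-Rnr2 (0.95), Adamts6 (0.95) and Safb2 (0.94). Pmaip1 followed Mlh3 (0.94), Calb1 (0.93) and Sema3e (0.93), and Bcl2l1 followed Nyap1 (0.94), Sugp2 (0.94) and Nkd2 (0.93). Bcl2l2 was closest to Syt4 (0.91), Bcl2 to Josd1 (0.90) and Mcl1 to Kmt5b (0.90). The weakest best matches were those of Bak1 with Mphosph6 (0.81) and of Hrk with Dctn5 (0.78).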

How the data were processed

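Total RNA libraries were made with a stranded kit (SMARTer Stranded Total RNA), per the labels' protocols, and the build mm10 is named in the submitters' processing notes. The aligner, the annotation and the counting are not given in the sources used here. The authors deposited 4 tables of log2 CPM, 10 libraries each. In those values, both extremes of each gene's 5 libraries in a group sit at the group's 10th and 90th percentile, a clipping that makes p-values too small. That was undone (extreme = (value - 0.4 × next value)/0.6), after which at least 99.91% of values up to 500 reads were whole reads within 0.05, beside 45.5 to 92.8% as deposited. Reads agreed between tables for at least 99.978% of genes.

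Fits were made per table with limma 3.58.1 (trend, R 4.3.3), without a block, with Benjamini-Hochberg adjustment over all genes of that table. Tables were normalized separately, so tests stay within a table. For the interaction, reads recovered for 13688 genes were used (log2 CPM, prior count 2, culture as block by duplicateCorrelation). Code was tested on simulated data. Exact permutation tests used scipy 1.17.1. Members and gene lists were chosen with earlier results of these data known. From each list and comparison, at most 4 called genes with the largest change are given with values. Likeness used genes with a joint mean of at least 3 log2 CPM. A call lost under an alternative is given beside the result.

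Pairing comes from the labels: N and OGD libraries of 1 number share genotype label and batch. Deviations of same-numbered libraries correlated at -0.73 to 0.08 in WT and -0.78 to -0.04 in KO, and 0 of 5 were most alike with their own number. Replicate 3 gave the lowest of these correlations in both genotypes, and its batch label (3.2 in WT, 2 in KO) was carried by no other culture. Whether the deposited values had been adjusted for batch was not tested, and the p-values assume that they had not. Design labels call the replicates biological. In the fits per table, p-values measure the spread between libraries of a group, without the pairing. Sequences are from RefSeq (GRCm38.p6) for promoters and miR-7, and from GENCODE M21 transcripts for target sites.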

Additional observations from a re-analysis of the deposited data

Results flagged for a closer look

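Each of the 40 combinations of a member and a group was examined for a library far from the other 4, and 3 were found, where chance gives about 2. Bcl2 in OGD_WT replicate 5 was at 4.46 log2 CPM, beside 5.48 to 5.84 in the other OGD_WT libraries. Without it the WT log2 fold change was 0.24 (limma adjusted p = 0.227). Hrk in N_WT replicate 4 was at 4.42, beside 4.93 to 5.00 in the others, and without it the log2 fold change was -0.15 (limma adjusted p = 0.398). Pmaip1 in OGD_KO replicate 2 was at 2.48, beside 2.84 to 2.97 in the others. Without that library Pmaip1 still fell, by 0.50 (limma adjusted p = 0.0125).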

How the results depend on the processing

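Bbc3 and Bcl2l11 kept their direction and their call under OGD in both genotypes in all 20 alternatives run, and Pmaip1 did so in WT. Pmaip1 in KO lost its call in batch 3 alone (limma adjusted p = 0.0837), Bax under scaling by total reads in both genotypes and in KO batch 3, and Bcl2l1 and Bcl2l2 as given beside their values. Other lost calls of Bcl2l2 in WT came with limma without the trend, the batch label as a covariate, batch 3 alone and recentred libraries (limma adjusted p = 0.0549, 0.117, 0.145 and 0.0551). Scaling by total reads was chosen after seeing the data. Apart from library weights and batch 3 in KO, no alternative moved a count of called members by over 1.5 times. With the culture as a replicate block, 4 members were called in WT and 5 in KO. Bcl2l1 and Bcl2l2 in WT were the calls it changed, and in the genotype comparisons 0 were called with or without it. Equal numbers there mostly carry different batch labels, and same-numbered deviations correlated at -0.04 to 0.23 in N (3 of 5 best with their own number) and -0.16 to 0.26 under OGD (2 of 5). With limma library weights 8 members were called in each genotype (in WT with Hrk at -0.193 and Mcl1 at 0.299 added), and in KO 2 were called in batch 3 alone, which leaves 3 cultures. Library weights also called 2 members between OGD_KO and OGD_WT (Pmaip1 at 0.31 and Bcl2l1 at -0.21) and 1 in the interaction (Pmaip1 at 0.63), although their estimation did not reach its convergence tolerance. The cause was not tested. With each library left out in turn, 4 to 6 members were called in WT and 5 to 6 in KO. The share of all genes called was computed for the main fits only. Counts of members under the alternatives therefore have no background beside them, and nothing is read from them about the family.

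Signs changed only for values that were not called. With the deposited clipping kept these were Bcl2 (0.0758, OGD against N in WT; -0.0419, KO against WT under OGD) and Mcl1 (0.00704, KO against WT in N). With library weights they were Bcl2 in WT (0.032), Bcl2 and Mcl1 between genotypes in N (-0.0426 and 0.0112), Bbc3 and Bax between genotypes under OGD (0.0546 and 0.00702), and Bak1 and Bcl2l2 in the interaction (0.245 and 0.136). In batch 3 alone they were Hrk in WT and KO (0.036 and 0.159) and Bak1 between genotypes in N (0.181). Recentring gave Bcl2 in WT 0.00428. Scaling by total reads gave Bak1 -0.0756 in WT and -0.11 in KO, Bcl2 -0.22 and Mcl1 -0.137 in KO, and Bcl2 -0.0239 between genotypes in N. The batch covariate gave Pmaip1 0.00944, Bcl2 -0.0608, Bcl2l1 -0.0315 and Mcl1 0.0507 between genotypes in N, and Bax 0.0266 and Bcl2l1 0.0125 under OGD. TMM scaling gave Hrk -4.17e-06 in the interaction.

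Ranges with 1 library left out crossed 0 as follows. Under OGD in WT they were -0.15 to 0.00211 for Hrk and -0.114 to 0.243 for Bcl2, and in KO -0.13 to 0.0493 for Hrk and -0.0477 to 0.145 for Bcl2. Between genotypes in N they were -0.105 to 0.038 for Pmaip1, -0.154 to 0.0631 for Bak1, -0.114 to 0.00445 for Bax, -0.107 to 0.114 for Bcl2, -0.0915 to 0.102 for Mcl1, -0.0883 to 0.169 for Bcl2l11 and -0.0427 to 0.0666 for Bcl2l1. Between genotypes under OGD they were -0.141 to 0.125 for Bbc3, -0.11 to 0.0774 for Bax, -0.188 to 0.161 for Bcl2, -0.202 to 0.0446 for Bcl2l1 and -0.291 to 0.0697 for Mcl1. In the interaction they were -0.0585 to 0.129 for Hrk, -0.327 to 0.0804 for Bbc3, -0.191 to 0.059 for Bcl2l2, -0.01002 to 0.216 for Pmaip1, -0.138 to 0.089 for Bak1, -0.243 to 0.0489 for Bcl2l1, -0.274 to 0.267 for Bcl2 and -0.341 to 0.191 for Mcl1. With 38 to 1893 reads per member and library, counting error is largest for Pmaip1, Bak1 and Bcl2l11.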
